A study of Mus musculus with 12 samples.

Results

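The 45 imprinted genes described here were chosen by symbol as mouse genes whose expression depends on the parent of origin. They were chosen with earlier results of these data known, so counts over them are not an unbiased estimate for imprinted genes. Of the 45 genes, 44 had a row among the 53819 symbols of the count table, and Nespas was not analysed here. In 36 of them the counts were high enough for a test, out of 13852 genes tested in all. By textbook assignment 24 of the 45 are expressed mainly from the paternal allele and 21 from the maternal allele, and they lie in 20 clusters on 10 chromosomes. For several, such as Nap1l4, Tssc4, Ascl2, Cd81, Dcn and Gab1 in placenta or Ube3a in neurons, imprinting is known in particular tissues and need not hold in embryonic stem cells. The counts carry no allele information, so every value is the sum over both parental copies.

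All 12 libraries came from E14, an established mouse embryonic stem cell line, grown in 2 dimensions. There were 3 libraries in each of 4 groups: cells given L-proline together with budesonide for 72 h, cells given budesonide for 72 h, cells given L-proline for 72 h, and untreated control cells. Proline is known to move such cells out of the naive state, and budesonide is a drug that activates the glucocorticoid receptor. Doses were not in the labels, and the control libraries carried no time. Nothing there says that replicates came from separate cultures. The p-values therefore measure only how far these libraries scatter, which could be technical scatter.

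Imprinted genes are marked in the germ line by DNA methylation at control regions, and the mark is kept in the embryo while the rest of the genome is reprogrammed. Many clusters hold a long non-coding RNA that keeps its neighbours silent on the same chromosome, as Kcnq1ot1 does on the paternal copy of the Kcnq1 domain. Imprinted proteins include brakes on growth such as Cdkn1c, Grb10 and Igf2r, and promoters of growth such as Igf2. Cultured embryonic stem cells are known for unstable imprints, above all in the Dlk1-Meg3 domain.

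The libraries held 5.30 to 15.9 M counts (M stands for mega), and the 3′ tag method counts about 1 fragment near the end of each polyadenylated transcript. The 8 embryonic stem cell markers (Pou5f1, Sox2, Nanog, Zfp42, Esrrb, Utf1, Lin28a and Sall4) were tested and detected in every group, with a summed level of 2267 to 2670 CPM (counts scaled to a common library total of 1 M). Single markers did change. At an edgeR adjusted p below 0.05, 1 was higher and 3 lower with proline than in control (7.88% of all tested genes changed). With both compounds against proline 3 were higher and 2 lower (10.1% of all). Against control 1 was lower with budesonide (6.51%) and 1 with both compounds (7.17%). The proline effect differed with budesonide present for 3 (0.469%). Control 3 and budesonide 3 stood apart: 6.57% and 8.43% of tested genes were at 0 in them, against 1.39% to 5.77% in the other libraries. Summed over the 44 genes, imprinted transcripts took 2976 to 3335 CPM in every library. In bulk RNA fewer cells expressing a gene and less RNA per cell cannot be told apart.

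H19 and Mirg, both called higher with budesonide than in control, are microRNA hosts, and mature microRNAs are shown because they are the processed products of these hosts. H19 holds 2 mature microRNAs and Mirg holds 19 with 18 different seeds. The sequences are RefSeq's for GRCm38.p6, on the minus strand of chr7 for H19 and the plus strand of chr12 for Mirg, and capitals mark the seed, bases 2 to 8. The microRNAs themselves were not measured.
mmu-miR-675-5p (H19, chr7:142577112-142577133): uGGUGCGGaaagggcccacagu
mmu-miR-675-3p (H19, chr7:142577078-142577099): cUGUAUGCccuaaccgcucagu
mmu-miR-453 (Mirg, chr12:109735669-109735692): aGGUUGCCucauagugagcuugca
mmu-miR-496a-5p (Mirg, chr12:109739132-109739152): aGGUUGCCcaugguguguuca
mmu-miR-154-5p (Mirg, chr12:109738438-109738459): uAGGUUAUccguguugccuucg
mmu-miR-409-3p (Mirg, chr12:109743204-109743225): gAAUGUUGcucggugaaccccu
mmu-miR-410-3p (Mirg, chr12:109743764-109743784): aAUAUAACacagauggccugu
Of the Mirg microRNAs, miR-453 and miR-496a-5p share a seed, GGUUGCC, and no other pair of the 19 does. The others printed show the spread of seeds along the host.

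The promoters of Kcnq1ot1 and Meg3, the long non-coding RNAs that head their domains, are shown as the 250 bases before an annotated start in RefSeq for GRCm38.p6. Capitals mark CCAAT, the box bound by the factor NF-Y, and TGCCGC, the motif read by the imprint guard Zfp57 when methylated, on either strand.
Kcnq1ot1 (chr7:143296548-143296797, minus strand): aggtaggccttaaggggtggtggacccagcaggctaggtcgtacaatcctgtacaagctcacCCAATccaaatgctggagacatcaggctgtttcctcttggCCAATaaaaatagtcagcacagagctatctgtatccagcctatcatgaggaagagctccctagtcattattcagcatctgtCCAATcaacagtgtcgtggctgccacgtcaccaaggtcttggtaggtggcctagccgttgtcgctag
Meg3 (chr12:109540746-109540995, plus strand): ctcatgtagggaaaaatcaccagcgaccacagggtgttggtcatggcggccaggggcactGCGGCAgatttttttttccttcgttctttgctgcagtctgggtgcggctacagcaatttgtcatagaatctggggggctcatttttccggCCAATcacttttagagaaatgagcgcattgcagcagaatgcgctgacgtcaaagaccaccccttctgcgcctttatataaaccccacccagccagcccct
The Kcnq1ot1 window held 3 matches to CCAAT, and the printed Meg3 window held 1 match to CCAAT and 1 to TGCCGC, printed as GCGGCA. A further annotated Meg3 window, chr12:109545148-109545397, is not printed and held 0 matches to CCAAT and 0 to TGCCGC. Of the 45 genes, 35 matched 52 promoters in the table. CCAAT was in 32.7% of these promoters and 33.8% of all 32851, and TGCCGC in 13.5% and 8.68%. AGAACA, a single arm of the palindrome bound by the glucocorticoid receptor, was in 15.4% and 16.1%, and the whole palindrome was in 0 of the 52 and in 0.00913% of all. All motifs were searched on both strands. A match is a run of letters and not a measured binding site. Imprinted promoters had a median of 10 CpG dinucleotides in 250 bases, against 6 over all promoters.

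Across the comparisons 16 of the 36 tested imprinted genes were called at least once, at an adjusted p below 0.05 in edgeR's quasi-likelihood test over all 13852 genes, and 20 were called in none. The share of all tested genes called at least once was not counted. The shares below each belong to 1 comparison and are no background for that count. With proline and budesonide together, 6 imprinted genes were higher and 5 lower than with proline alone, where 10.1% of all tested genes were called (5.83% higher and 4.27% lower). Under the same treatment 5 were higher and 5 lower than in control cells (7.17% of all genes, 3.34% higher and 3.83% lower). Budesonide alone left 3 higher and 3 lower than in control (6.51% of all genes, 2.51% higher and 4% lower). Proline alone left 5 higher and 3 lower (7.88%, 3.17% higher and 4.71% lower). With counts corrected for transcript length the split became 3 higher and 4 lower for both compounds against proline, and 6 higher and 2 lower for proline against control. Between the combined treatment and budesonide alone 1 imprinted gene was lower and 0 were higher (1.47% of all genes called, 0.874% higher and 0.592% lower). At an unadjusted p below 0.05, 4 of the 36 were higher and 4 lower there, beside 13.1% of all genes. DESeq2 called 3 imprinted genes and limma-voom 2, all lower, out of 435 and 248 genes called in all.

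**Figure D1:**
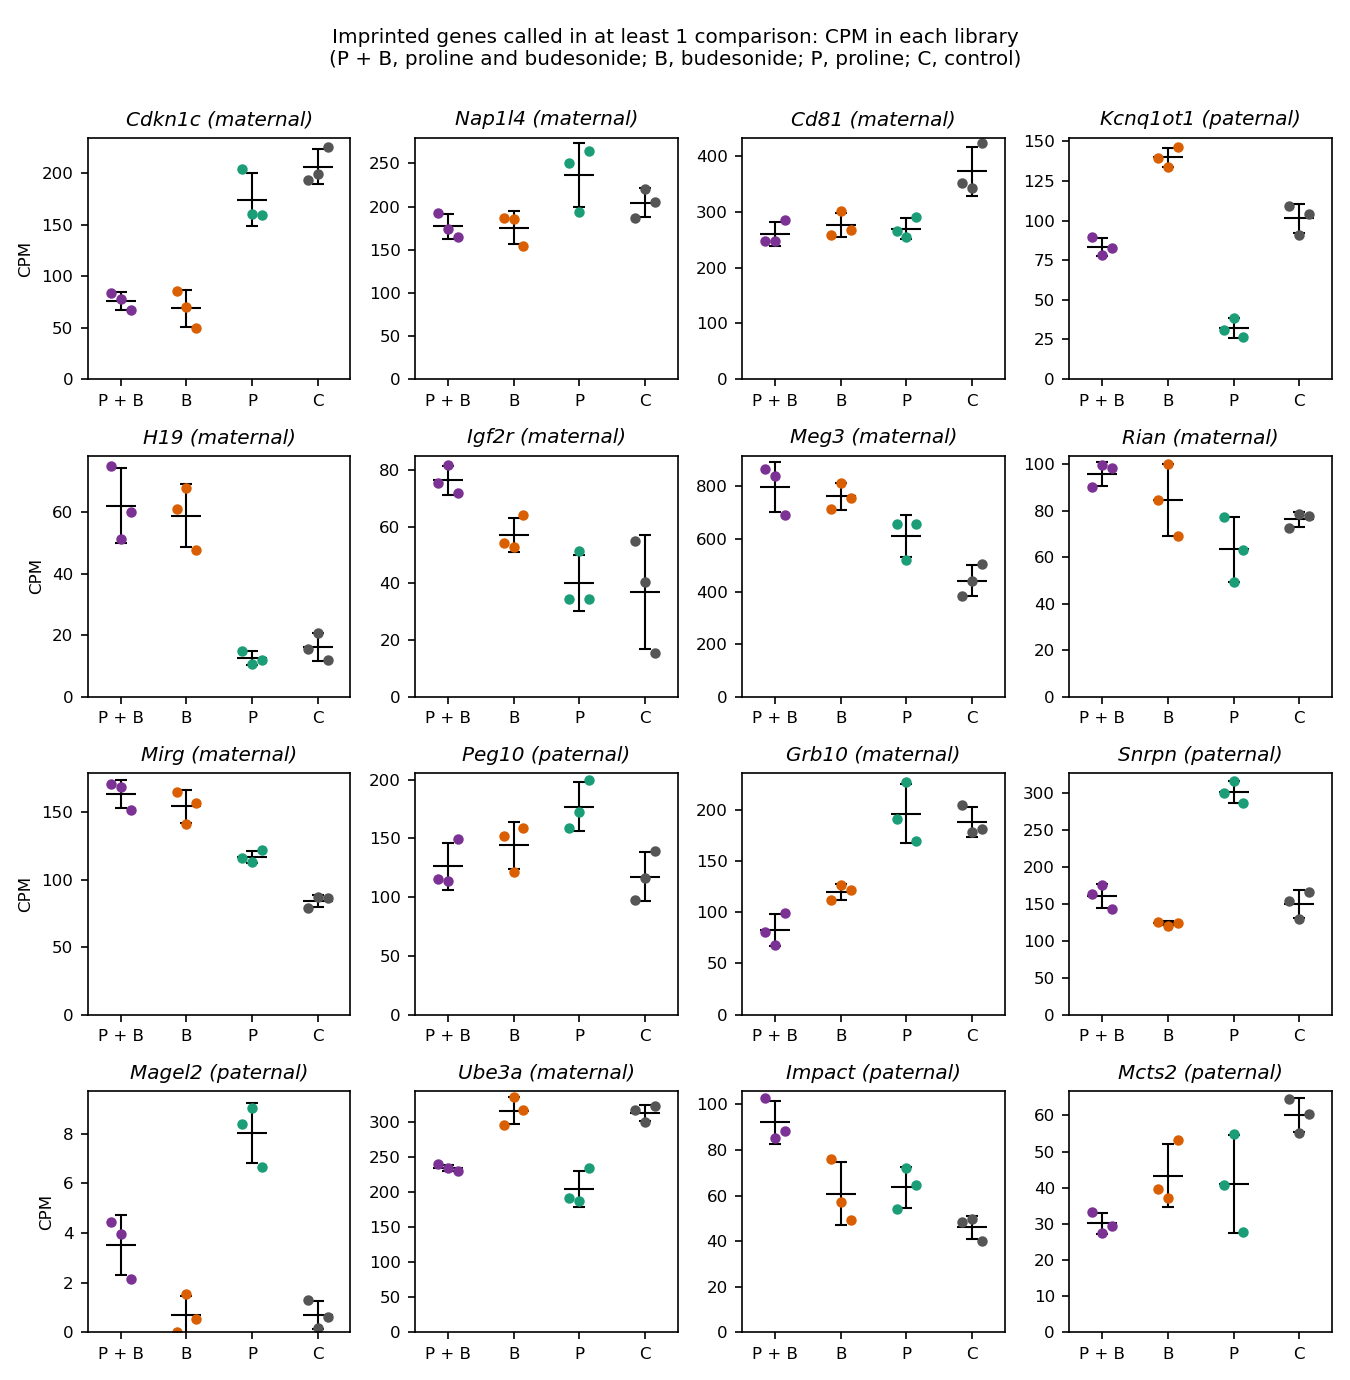
Level in CPM (vertical axes, from 0) of the 16 imprinted genes called in at least 1 comparison, in each of the 12 libraries. Points are libraries, bars the mean and standard deviation of 3, and the groups run from proline with budesonide on the left to control on the right. H19 and Cdkn1c split by budesonide in opposite directions, and Kcnq1ot1 is lowest in the 3 proline libraries.

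H19 and Cdkn1c, both maternally expressed and both on chromosome 7, moved in opposite directions with budesonide. H19, a long non-coding RNA that restrains growth in the mouse, had 75.0, 51.2 and 60.0 CPM with both compounds, 60.9, 67.7 and 47.7 CPM with budesonide, 15.05, 10.5 and 12.1 CPM with proline and 15.5, 20.8 and 11.9 CPM in control cells. All 6 libraries with budesonide lay above all 6 without it. The share of counts on the ribosomal gene Rn18s was 3.11% to 5.90% with both compounds, 2.28% to 6.70% with budesonide, 2.36% to 3.39% with proline and 2.21% to 2.77% in control, and its part in the budesonide changes was not tested. H19 rose 3.67-fold with budesonide over control (log2 change 1.87 ± 0.25 SE, edgeR adjusted p = 6.26e-05) and 4.90-fold when budesonide was added to proline (2.29 ± 0.25, adjusted p = 1.61e-06). Its paternally expressed neighbour Igf2, the fetal growth factor, had 5 counts in all libraries together. The microRNAs printed above for H19 are cut from this transcript.

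Cdkn1c, which encodes the inhibitor p57 of cyclin-dependent kinases, had 84.0, 77.8 and 66.8 CPM with both compounds, 85.6, 70.2 and 49.8 CPM with budesonide, 204, 160 and 159 CPM with proline and 193, 199 and 225 CPM in control. The libraries with budesonide lay below all others without overlap. It fell to 0.333 of the control level with budesonide (log2 change −1.59 ± 0.17 SE, edgeR adjusted p = 9.19e-06), the fifth smallest p of all 13852 genes. Added to proline, budesonide left 0.437 of the proline level (−1.20 ± 0.17, adjusted p = 4.86e-05). The change with proline alone, −0.24 ± 0.17, was not called (edgeR adjusted p = 0.484).

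Grb10, an adaptor that restrains signalling from insulin and growth factor receptors, was also lower with budesonide. It had 80.9, 67.7 and 99.6 CPM with both compounds, 112, 127 and 122 CPM with budesonide, 192, 228 and 170 CPM with proline and 205, 178 and 181 CPM in control. No library with both compounds reached a budesonide library, and no budesonide library reached a proline or control library. The fall was 0.65 ± 0.15 (SE) on the log2 scale for budesonide against control (edgeR adjusted p = 0.00875), and the fall for both compounds against proline came to 1.25 ± 0.15 (adjusted p = 6.36e-06). The further difference between both compounds and budesonide alone, −0.54 ± 0.15, was not called in edgeR (adjusted p = 0.0751). It was called by DESeq2 (0.0209), without the count filter (0.0309) and without both 3 (0.0455).

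Igf2r, the receptor that takes up and clears Igf2, was highest with both compounds. Its level was 75.4, 81.7 and 71.9 CPM there, 54.1, 53.0 and 64.0 CPM with budesonide, 34.5, 51.5 and 34.5 CPM with proline and 54.8, 40.7 and 15.4 CPM in control. The libraries with both compounds lay above every other library, and control 3 lay far below the other controls. The rise was 1.05 ± 0.28 (log2, SE) over control (edgeR adjusted p = 0.0256) and 0.93 ± 0.28 over proline (adjusted p = 0.0356). Without control 3 the first of these was 0.67 with an adjusted p of 0.0757, and the call was also lost without control 2, both 1 or both 2. The second was lost without proline 1, proline 3 or any library of both compounds, with an adjusted p of up to 0.147, and after removal of the trend of counts with transcript length (0.67, adjusted p = 0.140). Its antisense RNA Airn had 5 counts in all 12 libraries.

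Kcnq1ot1 was the imprinted gene with the smallest p under proline. It had 89.7, 78.5 and 82.6 CPM with both compounds, 140, 134 and 146 CPM with budesonide, 30.9, 38.8 and 26.5 CPM with proline and 109, 91.0 and 104 CPM in control. The 4 groups did not overlap at any point. Proline lowered it to 0.316 of the control level (log2 change −1.66 ± 0.16 SE, edgeR adjusted p = 2.53e-07), and with budesonide added it was 2.61-fold higher than with proline alone (1.38 ± 0.16, adjusted p = 3.26e-06). Against budesonide alone the combined treatment was lower by −0.74 ± 0.15 (adjusted p = 0.0143), a call lost when budesonide 3, both 2 or both 3 was left out. It was also lost when a trend of counts with transcript length was removed, with a change of −0.13 (adjusted p = 0.836), or −0.56 (adjusted p = 0.102) with lengths limited. The rise with budesonide against control, 0.46 ± 0.15, was not called (adjusted p = 0.0714; DESeq2 gave 0.0269 and limma-voom 0.0443).

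The proline effect on Kcnq1ot1 was −0.74 in the presence of budesonide and −1.66 in its absence, a difference of 0.92 ± 0.22 (SE) that was not called (edgeR adjusted p = 0.0638; 0.00478 with DESeq2 and 0.0487 with limma-voom). Kcnq1ot1 is annotated with a transcript of 93092 nucleotides. With the trend of counts with length removed, its proline change was −0.49 (adjusted p = 0.0959), or −1.35 and still called with lengths limited to 12301 nucleotides. Only 3 tested genes, Kcnq1ot1 among them, are longer than 50 kb (kilobases). Without the limit, the trend at its length therefore rests on few genes and partly on Kcnq1ot1 itself. The values of −0.49 here and −0.13 against budesonide alone cannot show how much of its change goes with length. The sense gene Kcnq1 had 4 counts in all, in 1 library.

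**Figure D2:**
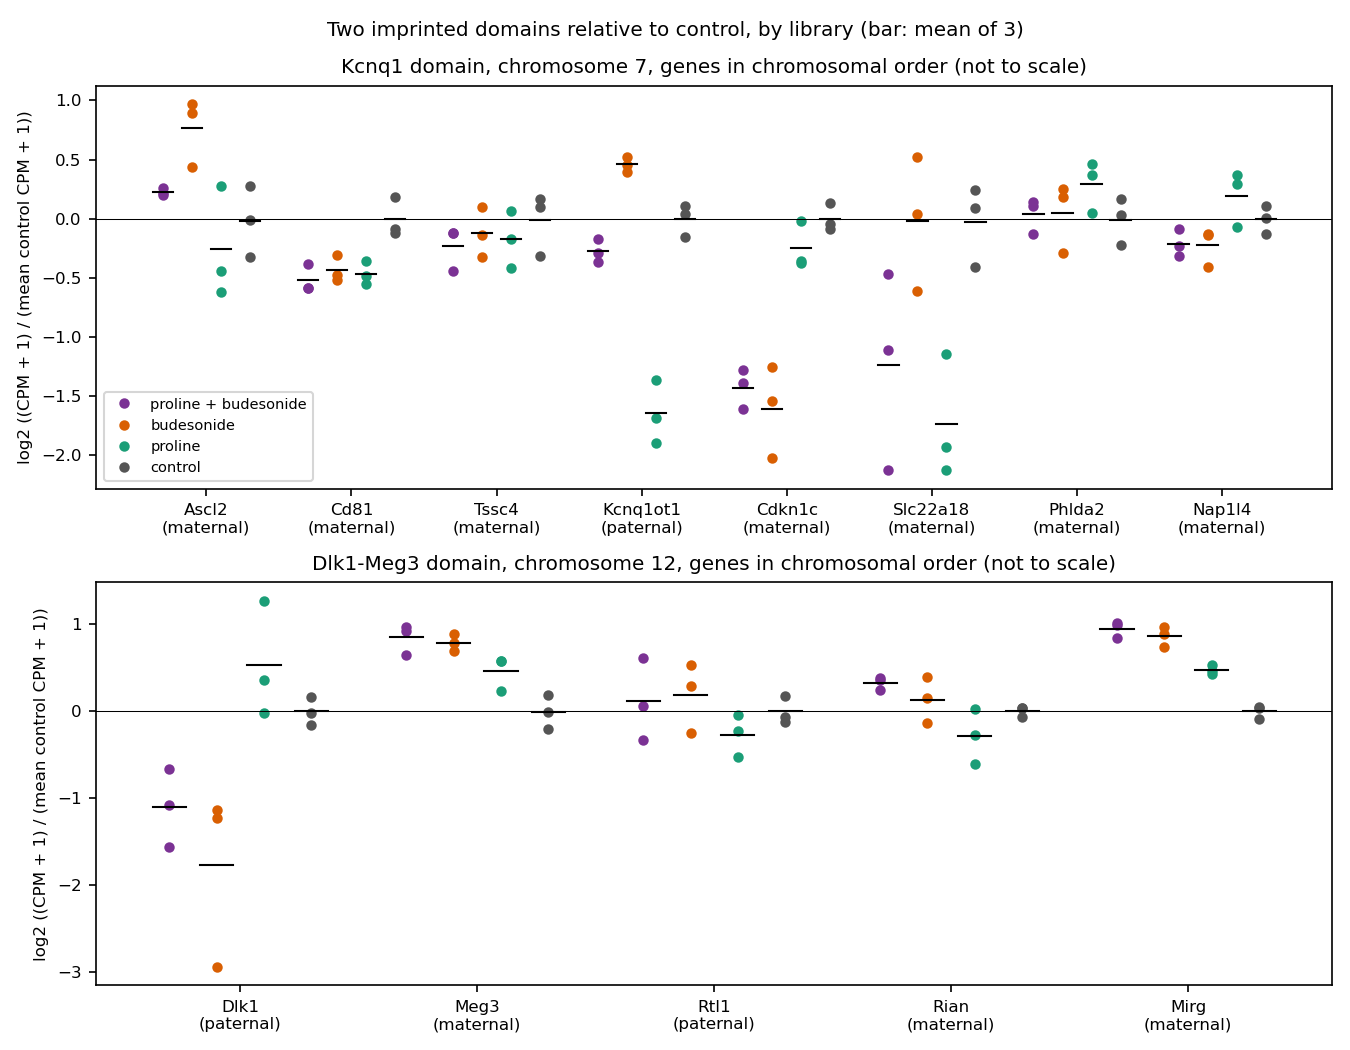
Change of each library from the control mean, as log2 of (CPM + 1) over (mean control CPM + 1), for the Kcnq1 domain on chromosome 7 (top) and the Dlk1-Meg3 domain on chromosome 12 (bottom). Points are libraries, bars the mean of 3, and genes stand in chromosomal order without scale. In the top panel Kcnq1ot1 is far below 0 with proline and Cdkn1c is far below 0 in both groups given budesonide.

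Among the 8 genes of the Kcnq1 domain the calls differed by gene and by compound. Kcnq1ot1 fell and Cdkn1c was not called with proline, while with budesonide Cdkn1c fell and Kcnq1ot1 was not called. Cd81, a tetraspanin, had 248, 248 and 286 CPM with both compounds, 260, 301 and 268 CPM with budesonide, 266, 254 and 291 CPM with proline and 351, 343 and 424 CPM in control. Control lay above all treated libraries. Against control Cd81 fell by 0.52 ± 0.12 with both compounds, by 0.43 ± 0.12 with budesonide and by 0.46 ± 0.12 with proline (log2, SE, with edgeR adjusted p of 0.00779, 0.0274 and 0.0149). Without control 3 the last 2 were −0.33 (adjusted p = 0.135) and −0.36 (adjusted p = 0.0802). The first call was lost without both 1 or both 2, the second without budesonide 1 or budesonide 3, and the third without proline 1 or proline 2. The second was also lost after removal of the length trend (−0.30, adjusted p = 0.174) and with only the 6 libraries of that comparison (adjusted p = 0.0751).

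Nap1l4, a histone chaperone, had 192, 174 and 164 CPM with both compounds, 187, 186 and 154 CPM with budesonide, 251, 194 and 264 CPM with proline and 187, 221 and 206 CPM in control. It fell by 0.42 ± 0.13 (log2, SE) with both compounds against proline (edgeR adjusted p = 0.0482), and the call was lost in most of the fits without 1 of these 6 libraries, where the adjusted p reached 0.210, and after removal of the length trend (0.0784). The other genes of the domain were called in no comparison. Phlda2, which limits placental growth, averaged 171 to 211 CPM over the groups, the spliceosome factor Tssc4 42.6 to 49.8 CPM and the transcription factor Ascl2 8.78 to 18.5 CPM. Slc22a18, a transporter, averaged 0.376 to 3.54 CPM, with 16 counts in the proline libraries together and 60 in control.

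In the Dlk1-Meg3 domain the maternally expressed non-coding RNAs Meg3 and Mirg were higher than in control with either compound. Meg3, a long non-coding RNA also known as Gtl2, had 865, 838 and 691 CPM with both compounds, 714, 815 and 758 CPM with budesonide, 658, 520 and 657 CPM with proline and 383, 440 and 504 CPM in control. All 9 treated libraries lay above the controls. Over control it rose 1.80-fold with both compounds (log2 change 0.85 ± 0.12 SE, edgeR adjusted p = 0.000114), 1.72-fold with budesonide (0.78 ± 0.12, adjusted p = 0.000352) and 1.38-fold with proline (0.47 ± 0.12, adjusted p = 0.0175).

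Mirg, the host of the microRNAs printed above, had 171, 168 and 151 CPM with both compounds, 165, 141 and 157 CPM with budesonide, 116, 113 and 122 CPM with proline and 79.2, 87.1 and 86.7 CPM in control. Control, proline and the libraries given budesonide formed 3 steps without overlap. Over control it rose 1.94-fold with both compounds (log2 change 0.96 ± 0.13 SE, edgeR adjusted p = 5.54e-05), 1.83-fold with budesonide (0.87 ± 0.13, adjusted p = 0.000188) and 1.39-fold with proline (0.47 ± 0.13, adjusted p = 0.0220). With both compounds against proline, Mirg rose by 0.48 ± 0.13 (adjusted p = 0.0156) and Meg3 by 0.38 ± 0.12 (adjusted p = 0.0457). After removal of the length trend, that change of Meg3 was −0.01 (adjusted p = 0.976), and 0.02 (adjusted p = 0.957) with limited lengths. Its annotated transcript has 14548 nucleotides. The proline calls of Meg3 and Mirg were lost in the fits without control 1, control 2, proline 1 or proline 3, with changes of 0.38 to 0.47 for Meg3 and 0.44 to 0.50 for Mirg. The rise of Mirg over proline was lost without proline 1, proline 2, both 1 or both 2. That of Meg3 was lost in 7 fits without 1 library, with an adjusted p of up to 0.220.

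Rian, which lies between them and carries small nucleolar RNAs, had 90.1, 99.6 and 98.3 CPM with both compounds, 84.7, 99.96 and 69.1 CPM with budesonide, 77.5, 49.6 and 63.1 CPM with proline and 72.7, 78.4 and 77.9 CPM in control. It rose by 0.59 ± 0.17 (log2, SE) with both compounds against proline (edgeR adjusted p = 0.0277) and was called in no other comparison. Without proline 2 the rise was 0.45 (adjusted p = 0.164), and the call was also lost without proline 3 or any library of both compounds. After removal of the length trend it was 0.37 (adjusted p = 0.201), and 0.36 (adjusted p = 0.209) with limited lengths. The paternally expressed genes of the domain were low. Dlk1, a membrane protein of the Notch ligand family, had 2.61, 3.80 and 1.60 CPM with both compounds, 2.26, 2.48 and 0 CPM with budesonide, 8.77, 6.51 and 17.4 CPM with proline and 7.53, 6.55 and 5.86 CPM in control. Libraries with budesonide lay below those without it, but the change with both compounds against proline, −2.02 ± 0.74, was not called (edgeR adjusted p = 0.0863). It was called by DESeq2 (0.0320), without the count filter (0.0433), without budesonide 3 (0.0118) and with only the 6 libraries (0.0116). Rtl1, a retrotransposon-derived protein, averaged 2.03 to 3.22 CPM.

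In the Snrpn-Ube3a cluster the paternally expressed Snrpn and Magel2 were higher with proline than in control, and the maternally expressed ubiquitin ligase Ube3a was lower. Snrpn, a protein of small nuclear ribonucleoproteins, had 163, 175 and 142 CPM with both compounds, 126, 120 and 124 CPM with budesonide, 299, 316 and 286 CPM with proline and 153, 129 and 166 CPM in control. The proline libraries lay far above all others. Snrpn rose 2.01-fold with proline over control (log2 change 1.01 ± 0.13 SE, edgeR adjusted p = 9.88e-06), and with both compounds it was at 0.533 of the proline level (−0.91 ± 0.13, adjusted p = 3.98e-05). The change with both compounds against control, 0.10 ± 0.13, was not called (adjusted p = 0.746).

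Ube3a had 240, 234 and 231 CPM with both compounds, 297, 336 and 317 CPM with budesonide, 192, 187 and 234 CPM with proline and 317, 300 and 323 CPM in control. Every library with proline lay below every library without it. The fall was 0.62 ± 0.11 (log2, SE) with proline against control (edgeR adjusted p = 0.00108) and 0.41 ± 0.11 with both compounds against control (adjusted p = 0.0281). The second call was lost when any control library or any library of both compounds was left out, with changes of −0.40 to −0.44. Against budesonide alone the combined treatment changed Ube3a by −0.43 ± 0.11, which was not called (adjusted p = 0.0612; 0.00465 with DESeq2 and 0.0402 with limma-voom).

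Magel2, of the MAGE family, was low in every group and highest with proline. It had 29, 27 and 16 counts with both compounds, 0, 10 and 4 with budesonide, 128, 61 and 48 with proline and 8, 1 and 4 in control. In CPM these were 4.46, 3.95 and 2.13 with both compounds and 0, 1.55 and 0.527 with budesonide. With proline they were 8.37, 9.03 and 6.67 CPM, and in control 1.31, 0.193 and 0.617 CPM. Magel2 rose with proline over control by 3.46 ± 0.99 (log2, SE, edgeR adjusted p = 0.0316), a call lost in 5 of the 6 fits without 1 of these libraries (adjusted p up to 0.130). Necdin, encoded by Ndn of the same family, averaged 6.28 CPM with both compounds, 8.07 with budesonide, 13.5 with proline and 11.2 in control and was called in no comparison. Snhg14, the non-coding RNA that runs through the cluster towards Ube3a, is not among the 45 genes and rose by 0.84 ± 0.21 with budesonide against control (edgeR adjusted p = 0.0144).

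**Figure D3:**
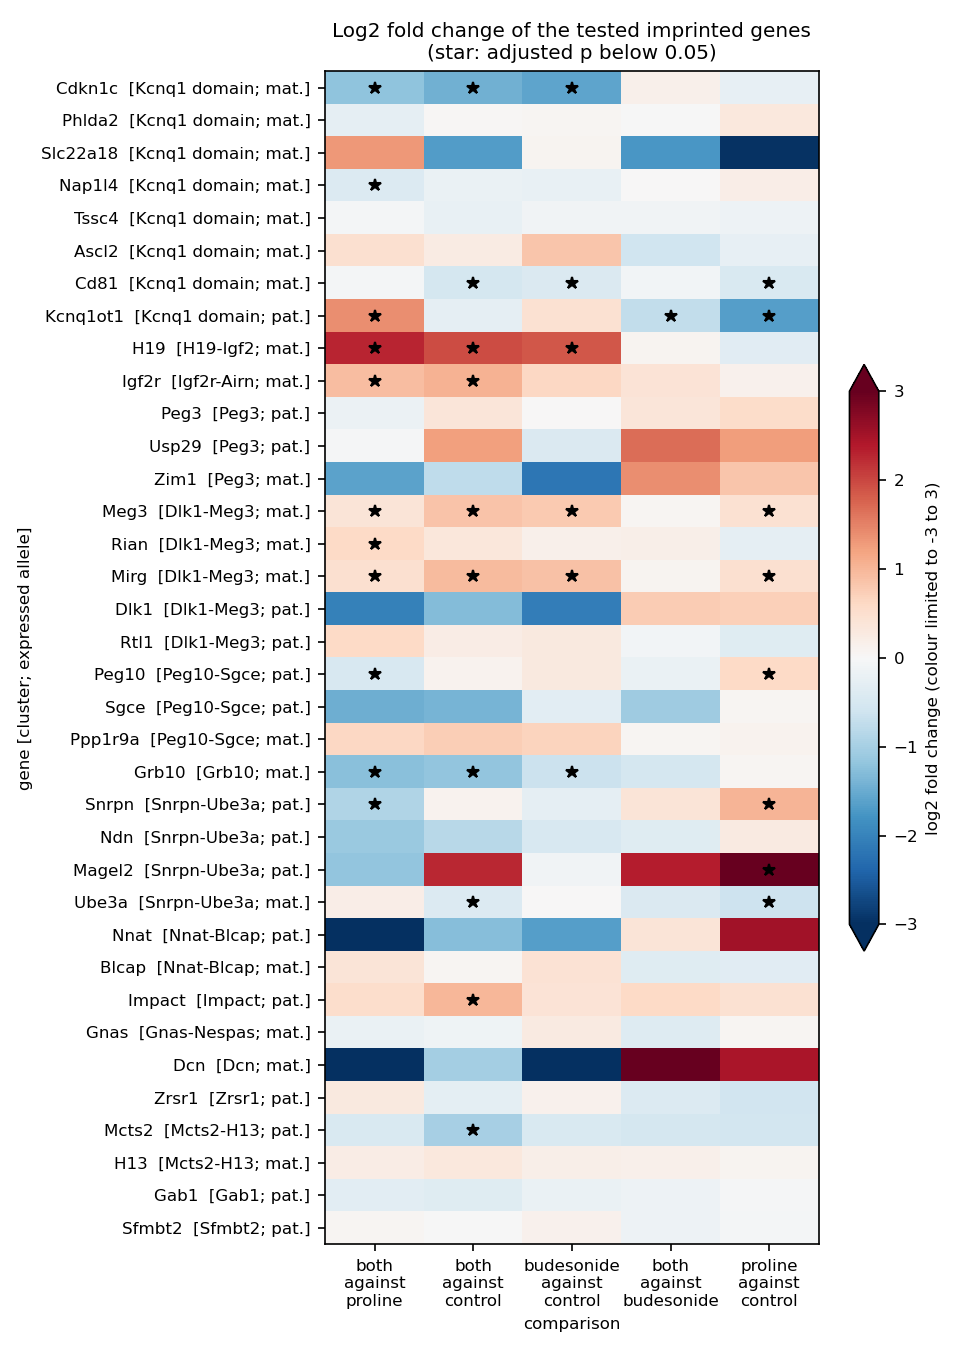
Log2 fold change of the 36 tested imprinted genes (rows, with cluster and expressed allele) in 5 comparisons (columns), from blue for lower to red for higher in the group named first, with colours limited to −3 and 3. Stars mark an adjusted p below 0.05. Several of the deepest colours without a star belong to genes with few counts, such as Dcn, Nnat and Slc22a18, and for Dcn, at 0 in budesonide cells, the fitted value has no fixed size.

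Peg10, a retrotransposon-derived protein needed for the placenta, had 115, 114 and 149 CPM with both compounds, 152, 121 and 159 CPM with budesonide, 159, 173 and 200.2 CPM with proline and 97.5, 116 and 139 CPM in control. The proline libraries lay above the controls and above those with both compounds. Peg10 rose by 0.59 ± 0.16 (log2, SE) with proline over control (edgeR adjusted p = 0.0204) and was lower by −0.49 ± 0.16 with both compounds against proline (adjusted p = 0.0491). Without proline 3 these were 0.49 (adjusted p = 0.114) and −0.39 (adjusted p = 0.198). The first call was also lost without control 1 or control 2, and the second in 6 more fits without 1 library.

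Impact, an inhibitor of the amino acid sensor Gcn2, had 103, 85.2 and 88.2 CPM with both compounds, 76.0, 57.2 and 49.1 CPM with budesonide, 54.1, 72.2 and 64.5 CPM with proline and 48.3, 49.7 and 40.1 CPM in control. Libraries with both compounds lay above all others. It rose 2.00-fold with both compounds over control (log2 change 0.9996 ± 0.19 SE, edgeR adjusted p = 0.00137). The change with both compounds against proline, 0.54 ± 0.18, was not called in edgeR (adjusted p = 0.0648), but it was called by DESeq2 (0.0493), by limma-voom (0.0229) and in 5 other settings. Mcts2, a retrocopy of Mcts1 that lies within H13, had 33.4, 27.5 and 29.5 CPM with both compounds, 39.7, 37.2 and 53.2 CPM with budesonide, 40.8, 54.8 and 27.6 CPM with proline and 64.6, 55.1 and 60.3 CPM in control. Control lay above every treated library, and Mcts2 fell to 0.502 of control with both compounds (−0.995 ± 0.23, edgeR adjusted p = 0.00808). Counts of a retrocopy may include reads of its parent gene.

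Among the 20 tested genes that were never called, several had levels well above the count filter. Gab1, a docking protein of receptor kinases, averaged 127 CPM with both compounds, 142 with budesonide, 159 with proline and 163 in control. Peg3, a zinc finger protein, averaged 59.7, 46.5, 67.6 and 46.1 CPM in the same order, and its proline change against control was 0.55 ± 0.18 (log2, SE, edgeR adjusted p = 0.0572). That change was called by DESeq2 (0.0279), without budesonide 3 (0.0489) and after removal of the length trend (0.71, adjusted p = 0.0136). The signal peptide peptidase H13 averaged 48.4 to 60.2 CPM, Blcap 30.1 to 51.3 CPM, the splicing factor retrocopy Zrsr1 23.4 to 38.1 CPM and the actin-binding protein Ppp1r9a 18.7 to 31.0 CPM. Gnas, the stimulatory G protein subunit, averaged 10.2 to 13.4 CPM and the Polycomb-related Sfmbt2 12.4 to 14.3 CPM.

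The remaining tested genes had few counts. Decorin, encoded by Dcn, had 0, 0 and 11 counts with both compounds, 0 in each budesonide library, 68, 28 and 61 with proline and 12, 1 and 6 in control. A count of 0 allows up to 3 counts in a library, counting error only. No Dcn comparison was called in edgeR with the count filter, with an adjusted p of 0.0821 for budesonide against control and 0.145 for both compounds against proline. Without the filter the first was called (0.0379). Neuronatin, encoded by Nnat, had 4, 3, 92 and 9 counts in the groups with both compounds, budesonide, proline and control, and was not called. Usp29, Zim1 and Sgce averaged at most 3.12, 1.70 and 3.88 CPM in any group.

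Of the 44 genes with a row, 8 failed the count filter and were not tested. Summed over all 12 libraries, Asb4 had 56 counts, Plagl1 51, Mest 47, Peg12 31, Peg13 20, Nap1l5 17, Igf2 5 and Airn 5. Of these 8, 7 are paternally expressed, while Asb4 is maternally expressed. Their levels did not allow a comparison at this depth.

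Split by expressed allele, all 6 calls of budesonide against control among the listed genes fell on maternally expressed genes. Imprinted-region genes outside the list also changed with budesonide, such as Snhg14 (higher) and Ddc (lower). They were given no allele here and are not in this split, which need not hold for them. Of 20 tested maternal genes 3 were higher (H19, Meg3 and Mirg) and 3 lower (Cdkn1c, Grb10 and Cd81), with a median log2 change of 0.11. Of 16 tested paternal genes 0 were called in edgeR, with a median of −0.15. In that set 5 had an unadjusted p below 0.05, DESeq2 called 2 and limma-voom 1. Beside these, 19.99% of all tested genes had an unadjusted p below 0.05, and DESeq2 called 1344 genes in all and limma-voom 897. Of all tested genes 6.51% were called and the median was 0.0134, and the difference between the allele sets was not tested.

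Proline against control gave 2 higher and 2 lower of 20 maternal genes (median 0.06) and 3 higher and 1 lower of 16 paternal genes (median 0.37), where 7.88% of all genes were called and their median was −0.00896. With both compounds against proline 5 maternal genes were higher and 3 lower (median 0.21), and 1 paternal gene was higher and 2 lower (median −0.39), beside 10.1% of all genes and a median of 0.0167. With both compounds against control 4 maternal genes were higher and 4 lower, with 1 paternal gene higher and 1 lower, beside 7.17% of all genes. The medians were −0.04 for maternal, −0.14 for paternal and 0.00885 for all tested genes. Without control 3 and budesonide 3, the budesonide calls were 3 maternal genes higher and 2 lower, and 0 paternal. The comparisons share libraries, so their counts are not independent.

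**Figure D4:**
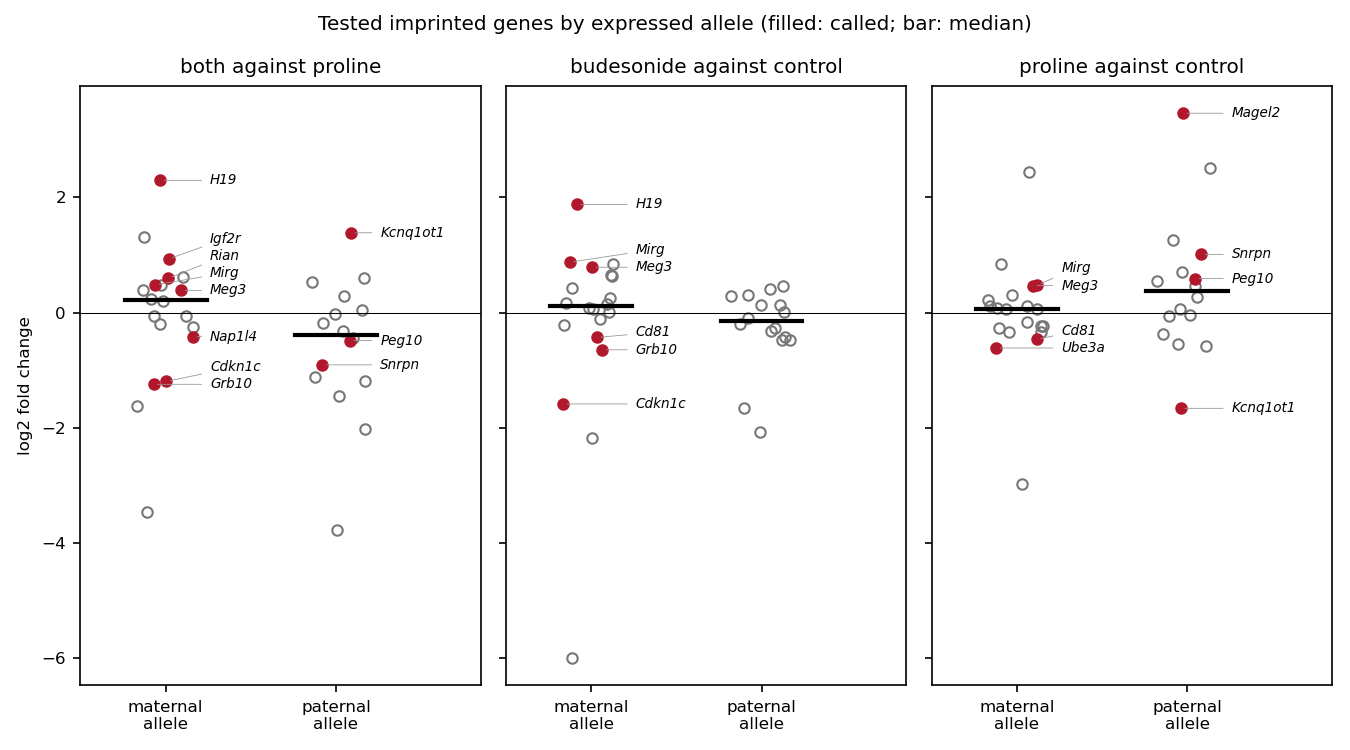
Log2 fold change (vertical axis) of the tested imprinted genes by expressed allele (horizontal axis) in 3 comparisons. Circles are genes, filled where called and then named, and bars are medians of 20 maternal and 16 paternal genes. In budesonide against control every filled circle is a maternal gene. The lowest circle there is Dcn, at 0 counts with budesonide, whose fitted value has no fixed size.

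The groups of libraries did not overlap for 18 of the 36 genes with both compounds against proline (31.9% of all tested genes) and for 18 with both compounds against control (28.4%). They did not overlap for 14 with budesonide against control (23.7%), for 15 with proline against control (26.7%) and for 10 with both compounds against budesonide (19.4%). In the test of whether the proline effect differs with budesonide present, 0 imprinted genes were called in edgeR, against 0.469% of all genes (0.411% higher and 0.0578% lower). At an unadjusted p below 0.05 there were 7 imprinted genes, or 19.4%, against 8.65% of all genes. DESeq2 called 3, Kcnq1ot1, Snrpn and Peg10, and limma-voom called 1, out of 162 and 78 genes called in all.

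The genes around the clusters were set beside all tested genes. Among 122 tested genes that lie inside the clusters or within 3 genes of them, 9.84% were called with both compounds against proline (10.1% of all genes) and 10.7% with both compounds against control (7.17% of all). With budesonide against control 5.74% were called (6.51% of all), and with proline against control 8.20% (7.88% of all). Beside Grb10, Cobl, an actin nucleator, averaged 55.9 CPM with both compounds, 146 with budesonide, 32.1 with proline and 146 in control. Its change with proline against control was −2.19 ± 0.16 (log2, SE, edgeR adjusted p = 3.72e-09). Ddc, the decarboxylase on the other side of Grb10, fell by 1.27 ± 0.21 with both compounds, by 1.02 ± 0.21 with budesonide and by 0.93 ± 0.21 with proline against control. Both are themselves imprinted in some mouse tissues.

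A further list held proteins that guard imprints. Of 17 tested, such as Zfp57, Trim28, Dppa3 and Dnmt1, Atrx was lower with proline than in control (−0.66 ± 0.12, log2, SE) and higher with both compounds than with proline (0.70 ± 0.12), and Ehmt1 was higher with proline (0.51 ± 0.14). The shares of all genes called in these comparisons were 7.88% and 10.1%. With budesonide against control edgeR, DESeq2 and limma-voom each called 0 of the 17, and 4 had an unadjusted p below 0.05. Of all tested genes 19.99% had an unadjusted p below 0.05 there. All genes called were 902 with edgeR, 1344 with DESeq2 and 897 with limma-voom. Of 6 tested writers and erasers of DNA methylation, Tet1 and Tet2 were lower with proline (−0.996 ± 0.11 and −1.70 ± 0.20), and the de novo methyltransferases Dnmt3a and Dnmt3b were higher. With budesonide against control, where 6.51% of all genes were called, Dnmt3a, Dnmt3b and their partner Dnmt3l fell by 0.45 ± 0.13, 0.49 ± 0.11 and 0.48 ± 0.11. Of these 3 calls limma-voom made 2, and without control 3 and budesonide 3 edgeR made 1 in this list. With both compounds against proline 2 of the 6 were higher and 3 lower (10.1% of all genes). Against budesonide alone 1 was higher and 1 lower (1.47%). The proline effect differed with budesonide present for 2, in the lower direction (0.469% of all genes called). DNA methylation itself was not measured.

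Because several of these genes are imprinted in or act on the placenta, trophoblast markers were summed in each library. Over 14 markers the sum was 136 to 151 CPM with both compounds, 101 to 138 CPM with budesonide, 44.0 to 73.3 CPM with proline and 63.3 to 69.7 CPM in control. With both compounds against proline 4 of 10 tested markers were higher (Krt8, Krt18, Tfap2c and Plac1), beside 5.83% of all genes. Against control 2 were higher with both compounds (3.34% of all genes) and 1, Krt18, with budesonide (2.51%). Krt8 was lower with proline than in control, and Prl3d1, Prl2c2 and Tpbpa were at 0 in every library. Elf5 went against the sum, with counts in control only and none in the treated groups. Plac1 had none with proline. The part of the trophoblast markers in the changes of H19, Cdkn1c and Grb10 was not tested. Neural markers summed to 80.7 to 101 CPM with both compounds, 68.7 to 76.5 CPM with budesonide, 47.8 to 56.5 CPM with proline and 54.3 to 64.2 CPM in control, and their part in these changes was not tested either. Endoderm markers summed to 17.2 to 25.6 CPM with both compounds, 5.40 to 17.7 CPM with budesonide, 26.7 to 29.0 CPM with proline and 11.3 to 14.6 CPM in control, with Ttr at 0 throughout. Of 7 tested, Sox17 was called higher with proline and with budesonide than in control (3.17% and 2.51% of all genes were). Its budesonide call was not made by DESeq2 or limma-voom, nor without control 3 and budesonide 3, and its proline call was not made by limma-voom. The part of the endoderm markers in the proline changes was not tested. Feeder fibroblast markers summed to 26.8 to 50.6 CPM with both compounds, 41.1 to 71.1 CPM with budesonide, 43.8 to 53.8 CPM with proline and 40.6 to 47.3 CPM in control, with Postn and Lum at 0 throughout.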

How the data were processed

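Per the labels' protocols, total RNA was made into QuantSeq 3′ libraries from polyadenylated RNA. GRCm39 is the build in the submitters' processing notes, and the tools listed there are STAR 2.7.5c, featureCounts 2.0, cutadapt 2.5, bcl2fastq and DESeq2. The strand setting is not given in the sources used here, so antisense and nested genes cannot be told apart fully. The authors deposited whole-number counts per symbol, which were used; their normalised signal table was not.

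Counts of all 12 libraries were fitted with edgeR 4.0.16 in R 4.3.3 (filterByExpr minimum count 10 and total 15, TMM, 1 coefficient per group, 8 residual degrees of freedom, two-sided quasi-likelihood F test), with Benjamini-Hochberg adjustment over 13852 genes and calls below 0.05. SE is the log2 change over the square root of F. CPM uses TMM-adjusted totals. The fit was tested on simulated data. Alternatives were DESeq2 1.42.0, limma-voom (limma 3.58.1), DESeq2 size factors, no filter, a replicate block, length offsets (with lengths capped, added after seeing the data), 6 libraries only, and libraries left out. Intervals and floors cover counting error only. Genes called at least once are given library by library, the rest by means, ranges or sums. The members and lists were chosen with earlier results of these data known. RefSeq sequences are GRCm38.p6.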

Additional observations from a re-analysis of the deposited data

How the results depend on the processing

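Of 36 calls of single imprinted genes, 19 kept their call under every alternative, and 17 lost it under at least 1. The calls of H19, Cdkn1c, Grb10 and Snrpn were among those kept. With offsets for transcript length, the change of Meg3 with both compounds against proline reversed to −0.0115, and 7 imprinted genes were called there (3 higher and 4 lower), with or without a limit on lengths. The uncapped offsets gave 6 higher and 2 lower for proline against control. For both compounds against budesonide the imprinted genes called were 3 with DESeq2, 2 with limma-voom, 2 without the count filter and 0 with either offset. All genes called there were 435 with DESeq2, 354 without the filter, 128 with the replicate block and 120 with 6 libraries. In the interaction all genes called were 162 with DESeq2 and 134 without the filter, and imprinted genes 3 with DESeq2, 1 with limma-voom and 2 without the filter. Without control 3 and budesonide 3, genes called were 575 with budesonide against control (493 with 6 libraries) and 2045 with both compounds against proline. The cause of these moves was not tested. Same-numbered libraries did not deviate together (r of −0.0767 to 0.0529 in 18 pairs, 3 of 12 libraries closest to their own number). No pairing by number was seen, but with 3 libraries per group this cannot show that the numbers mark nothing shared. The replicate block ended the calls of Magel2 with proline and of Meg3 and Nap1l4 with both compounds against proline.

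Leaving out each library in turn gave 674 to 1245 genes and 4 to 9 imprinted genes for proline against control, 620 to 912 and 5 to 7 for budesonide against control, 836 to 1647 and 5 to 13 for both compounds against proline, 535 to 1187 and 7 to 10 for both against control, 80 to 307 and 0 to 2 for both against budesonide, and 44 to 89 and 0 to 1 for the interaction. Levels of a few counts limit Dcn, Nnat, Magel2 and Slc22a18.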

Other observations

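Among 49 further imprinted genes outside the 45, 32 were tested. With both compounds against proline 3 were higher and 1 lower (10.1% of all tested genes called), and against control 0 and 3 (7.17%). Budesonide against control gave 0 higher and 2 lower (6.51%), and both compounds against budesonide 0 and 1 (1.47%). With proline against control 1 was higher and 4 lower (7.88%). Atp10a, a lipid flippase beside Ube3a, changed by 2.79 ± 0.72 (log2, SE) there. Xist and its antisense RNA Tsix changed by −1.71 ± 0.29 and −1.70 ± 0.39, and Cobl and Ddc, given above, were also lower. Counts of Xist and Tsix cannot be told apart without a strand setting. With both compounds against proline Slc38a4, an amino acid transporter, averaged 207 CPM against 129 CPM with proline and rose by 0.68 ± 0.16 (edgeR adjusted p = 0.00765). Rhox5, an X-linked homeobox gene, averaged 63.5 CPM with both compounds, 53.2 CPM with budesonide, 111 CPM with proline and 96.7 CPM in control. It fell by 0.86 ± 0.16 with budesonide against control (edgeR adjusted p = 0.00151) and by 0.81 ± 0.16 with both compounds against proline (adjusted p = 0.00130).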
